A study of Homo sapiens with 12 samples.

Results

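The integrated stress response and the unfolded protein response were followed through 10 genes: ATF4, DDIT3, TRIB3, CHAC1, HSPA5, XBP1, DNAJB9, HERPUD1, ERN1 and PPP1R15A. They were taken by gene symbol from a table of 60240 genes, and each of the 10 symbols was found in 1 row. RNA came from HL-60, a wild-type line established from human promyelocytic leukaemia and grown here in 6-well plates. Treated wells received decitabine, a nucleoside drug that depletes DNA methyltransferases once cells copy it into their DNA, at 100 nM at 0, 24 and 48 h, and control wells received DMSO. RNA was taken at 6, 72 and 120 h, so that the 6 h wells had only had the first addition, and the 120 h wells were sampled after all additions. The study asked how RNA levels and RNA stability differ by treatment and by time. Values were analysed for 2 libraries of decitabine and 2 of DMSO at 6 h, 2 and 1 at 72 h, and 2 and 2 at 120 h. The second DMSO 72 h library was not analysed here. Duplicates were wells of a single line that no source describes as independent cultures, and the p-values therefore reflect the spread between wells only, which may be technical.

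The integrated stress response and the unfolded protein response both act on translation and on transcription. Kinases that sense unfolded proteins in the endoplasmic reticulum (ER), missing amino acids, missing haem or double-stranded RNA phosphorylate the initiation factor eIF2, which slows protein synthesis while ATF4 protein is made more efficiently from its mRNA. ATF4 then drives genes such as DDIT3 (CHOP), TRIB3 and CHAC1, and PPP1R15A (GADD34) brings a phosphatase to eIF2 and reverses the block. In the ER itself, ERN1 (IRE1) cuts XBP1 mRNA so that it codes for an active factor, and XBP1 and ATF6 drive chaperones such as HSPA5 (BiP) and DNAJB9 and the degradation factor HERPUD1. Granulocyte precursors make large amounts of granule protein in the ER. Gene-level RNA values hold neither the translation of ATF4 nor the splicing of XBP1, so what follows concerns RNA amounts.

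The libraries held an estimated 14427331 to 32908419 counts each, and a single estimated count was worth 0.407 to 0.961 normalised counts, the unit of all levels below. Every result rests on one reading of the column heading, whose 12 library names stand over 11 value columns and were taken to begin at the symbol column. The 2 decitabine 72 h libraries stood apart: their median absolute log2 difference over the genes was 0.59, against 0.19 to 0.261 in the other pairs. One listed gene, FP671120.7, took 3.89 to 10.9% of the total in the 4 libraries of 120 h and 5.25% in decitabine 72 h replicate 1, and 0.0424 to 0.794% elsewhere. Mitochondrial mRNAs took 0.662 to 0.812% in those 5 libraries and 0.239 to 0.415% in the others. The 10 promyelocyte markers were above 0, with a summed level of 110590 to 198410, but this sum is mostly MPO (86060 to 178300). Of these 10, 3 had a positive and 7 a negative log2 change at 120 h. CEBPE went from a mean of 1402 in DMSO to 2586 in decitabine, ELANE from 839.8 to 382.8 and CEBPA from 1851 to 1211. The summed level of 10 eosinophil markers was 14474 and 15770 in DMSO at 120 h and 122800 and 133230 in decitabine, and was 17454 and 73222 to 85196 at 72 h. It is mostly PRG2, with a decitabine mean of 113300 at 120 h, and all 10 had a positive log2 change at 120 h. Late neutrophil markers summed to 7299.6 and 7756.9 against 38498 and 41169 at 120 h, but this sum is mostly S100A8 and S100A9, with decitabine means of 14750 and 19840. Of the 10 late neutrophil markers, 8 had a positive and 2 a negative log2 change at 120 h. MMP8 went from a mean of 21.4 in DMSO to 2.664 in decitabine, and LTF from 31.86 to 11.42. Monocyte markers summed to 601.54 and 660.32 against 2508.8 and 2600.7, mostly CD68, with a decitabine mean of 2080. HBA1, HBB and ALAS2 were listed at 0 in each library. The part of these shares and markers in the results below was not tested. In bulk RNA, fewer cells of a type and less RNA per cell cannot be told apart.

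The sequences around the starts of the stress genes were searched for the exact letters of a few response elements. Elements further away or with other letters were not looked for. RefSeq promoters (GRCh38.p14, 250 bases before to 50 after a start) were found for 10 of 10 genes, with 15 starts, and were searched on both strands. The stretches below hold the matches, in capitals. HSPA5 and XBP1 have the ER stress response element (CCAAT and CCACG with 9 bases between). HERPUD1 has the shorter element II (ATTGGNCCACG) and the C/EBP-ATF element (TGATGNAAN, here on the other strand). CHAC1 has the C/EBP-ATF element, also on the other strand, and PPP1R15A the cAMP response element (TGACGTCA).
HSPA5, chr9:125241359-125241438, minus strand: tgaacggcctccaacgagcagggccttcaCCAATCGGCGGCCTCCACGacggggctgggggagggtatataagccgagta
XBP1, chr22:28800598-28800677, minus strand: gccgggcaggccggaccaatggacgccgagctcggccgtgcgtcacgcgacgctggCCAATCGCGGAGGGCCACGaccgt
HERPUD1, chr16:56931957-56932046, plus strand: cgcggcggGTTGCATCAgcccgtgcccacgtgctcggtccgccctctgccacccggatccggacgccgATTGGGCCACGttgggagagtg
CHAC1, chr15:40953251-40953280, plus strand: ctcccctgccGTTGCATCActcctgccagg
PPP1R15A, chr19:48872322-48872391, plus strand: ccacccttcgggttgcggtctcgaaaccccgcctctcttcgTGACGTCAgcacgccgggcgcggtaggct

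The full ER stress element began 66 bases before the start of HSPA5 and 52 before the first of the 2 RefSeq starts of XBP1, and is in 27 of 35116 RefSeq promoters (0.0769%). HERPUD1 carries element II 117 bases before its start, a match that 0.0541% of promoters hold. Its C/EBP-ATF match, 177 bases before the start, has the same letters as that of CHAC1, 210 bases before its start, and 3.61% of promoters have such a match. The cAMP element of PPP1R15A lies 58 bases before the start, and 1.85% of promoters hold one. The shared part CCACG, found in both ER stress elements, was in at least 1 promoter of 8 of the 10 genes, which have 15 starts. It was in 38.1% of all promoters counted singly, which is a different unit. TGACGTGG was in 0 of the 10 genes and in 0.729% of all promoters. None of the motifs was matched in the DDIT3 and ERN1 windows, which says only that these letters are not there. Element II and the cAMP element were searched for after the promoters and the values had been seen.

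Levels differed widely among the 10 genes. Per kilobase of exon in DMSO cells at 6 h, the means were 2089 normalised counts for ATF4, 951 for HSPA5, 699 for XBP1, 119 for DNAJB9, 97.1 for PPP1R15A, 56.2 for DDIT3, 36.5 for HERPUD1, 28.1 for ERN1, 15.4 for TRIB3 and 1.04 for CHAC1. In that group no 2 neighbours in this order overlapped, although with 2 libraries each the spread is poorly known. In decitabine cells at 120 h PPP1R15A stood at 284 per kilobase, above DNAJB9 at 127, and DDIT3 at 94.7 remained below DNAJB9. ATF4 and HSPA5 were the highest and CHAC1 the lowest in both groups.

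**Figure D1:**
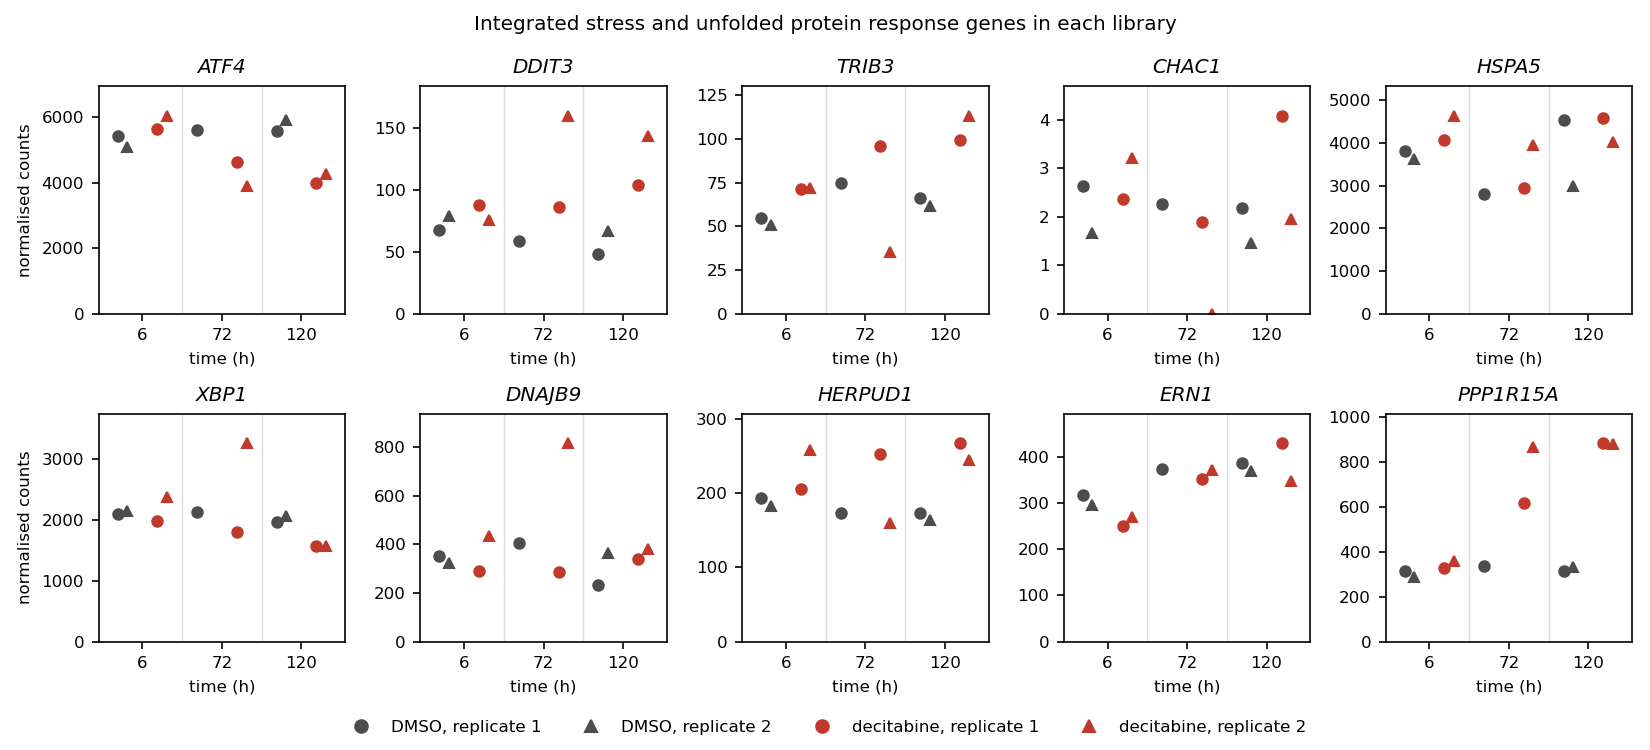
Normalised counts (y axis, linear from 0) of the 10 stress genes in each of the 11 libraries, by time in hours (x axis). Grey points are DMSO and red points decitabine, circles replicate 1 and triangles replicate 2. PPP1R15A reached 880.4 and 878 in decitabine at 120 h, against 288.6 to 336.6 in the 5 DMSO libraries, and replicate 2 of decitabine at 72 h was the highest library for DDIT3, XBP1 and DNAJB9.

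After decitabine, PPP1R15A rose at 120 h, and it was the only one of the 9 tested genes to pass the test with all 11 libraries in the fit. CHAC1 was under the filter of 10 normalised counts in at least 2 libraries and was not tested. Tests were limma's, on log2(value + 1) over 16152 genes with Benjamini-Hochberg adjustment, with calls made below an adjusted p of 0.05; of the genes tested 15.9% were called at 120 h (9.91% higher and 6.00% lower), so 1 of 9 is no more than the background. The log2 change was positive for 7 and negative for 2 of the 9, with a median of 0.299 against 0.07 for all genes tested. The fit shares its spread among all groups, including the discordant 72 h pair. With the 72 h libraries left out, an alternative chosen after seeing the data, the changes are the same but 6 of 9 were called, DDIT3, TRIB3, HERPUD1 and PPP1R15A higher and ATF4 and XBP1 lower, where 31.5% of 15640 genes were called (16.2% higher and 15.3% lower). The same 6 genes did not overlap with any of the 5 DMSO libraries at 120 h, 4 above and 2 below, while 27.1% of all tested genes lay above and 23.3% below. Against the same-time DMSO libraries alone the placement of these 6 was the same, and 36.1% of all tested genes lay above and 30.6% below.

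**Figure D2:**
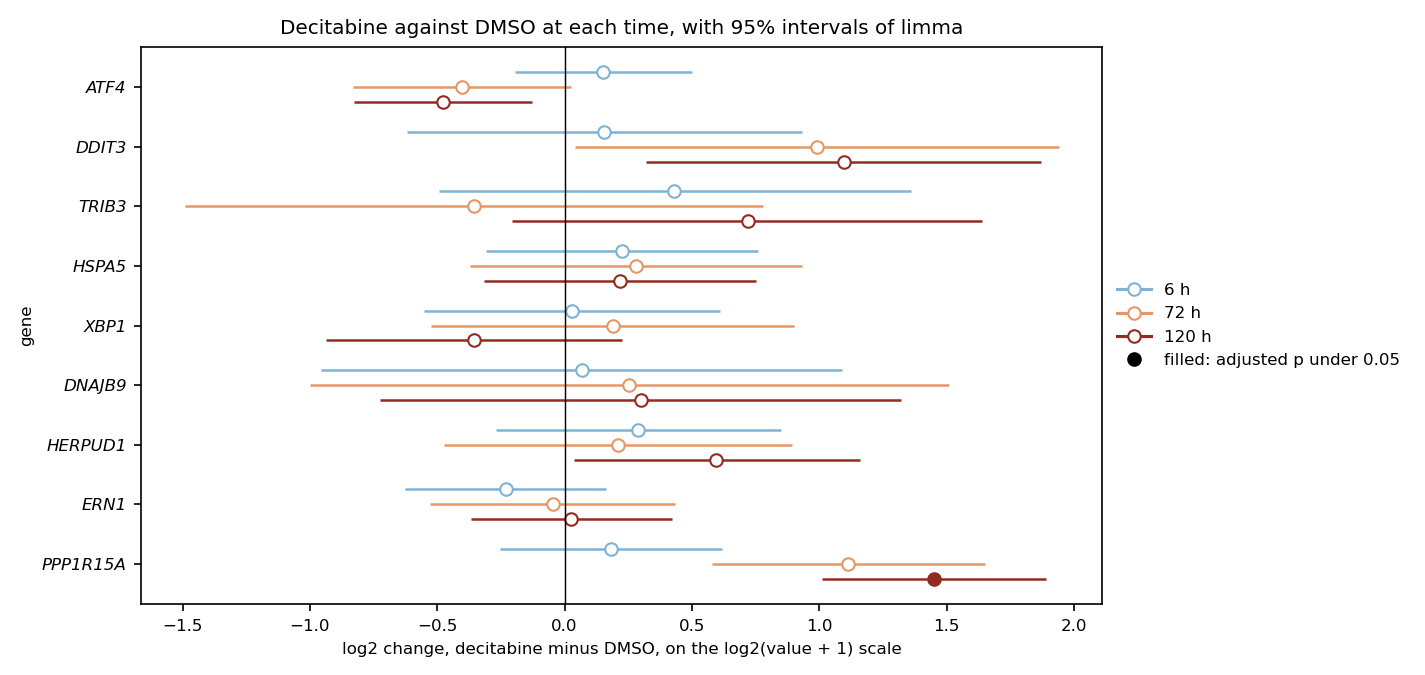
Log2 change of the 9 tested genes, decitabine minus DMSO (x axis, on the log2(value + 1) scale), at 6, 72 and 120 h, with 95% intervals from limma over all 11 libraries. Filled points have an adjusted p under 0.05; the single one is PPP1R15A at 120 h, at 1.45.

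ATF4 (chr22:39519695-39522685, plus strand, GRCh38), the transcription factor at the centre of the integrated stress response, had less RNA in decitabine cells at the late times. Its levels were 5417 and 5086 in DMSO and 5634 and 6040 in decitabine at 6 h, 5616 in DMSO and 4642 and 3884 in decitabine at 72 h, and 5572 and 5918 in DMSO and 3984 and 4273 in decitabine at 120 h. The 4 late decitabine libraries all lay below the 5 DMSO libraries. The log2 change was 0.15 at 6 h (SE 0.153), -0.40 at 72 h (SE 0.187, adjusted p = 0.302) and -0.48 at 120 h (95% interval -0.825 to -0.128, adjusted p = 0.0705). It was called without the 72 h libraries (adjusted p = 0.00541), and over the 22 alternatives for 120 h its adjusted p ran from 0.00541 to 0.318, under 0.05 in 7.

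DDIT3 (chr12:57516588-57521737, minus strand) codes for CHOP, a pro-apoptotic factor that ATF4 induces, and its RNA stood higher while that of ATF4 stood lower. The levels were 67.82 and 78.97 in DMSO and 87.95 and 75.8 in decitabine at 6 h, where the groups overlapped. At 72 h they were 58.68 in DMSO and 86.58 and 160 in decitabine, and at 120 h 47.97 and 66.75 in DMSO and 103.9 and 143.5 in decitabine. All 4 late decitabine libraries exceeded the highest DMSO library. The log2 change was 0.99 at 72 h (SE 0.416, adjusted p = 0.257) and 1.10 at 120 h (95% interval 0.32 to 1.87, adjusted p = 0.0634), a ratio of means of 2.16. Without the 72 h libraries the adjusted p at 120 h was 0.0145, within a range of 0.0107 to 0.304 over the alternatives. Its annotated ends overlap MARS1 and MBD6 on the other strand, and no source used here says whether reads were counted by strand. MBD6 had 40.9 and 36.9 in DMSO and 86 and 99.9 in decitabine at 120 h, and 22.6 in decitabine 72 h replicate 2, where DDIT3 was highest. In decitabine 72 h replicate 1 MBD6 had 94.1, and 58 in DMSO at 72 h, and its part in the DDIT3 values was not tested. AC022506.1, on the same strand, was listed at 0 to 11.1, and MARS1 was lower in both 120 h decitabine libraries (1157 and 1332) than in DMSO (1663 and 3421).

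TRIB3 (chr20:362835-397559, plus strand) is a pseudokinase that ATF4 and CHOP induce and that restrains ATF4. At 6 h it had 54.76 and 50.92 in DMSO and 71.16 and 71.86 in decitabine, at 72 h 75.06 in DMSO and 95.95 and 35.45 in decitabine, and at 120 h 66.39 and 61.72 in DMSO and 99.25 and 113.3 in decitabine. The groups were apart at 6 and 120 h, and at 72 h the decitabine duplicates lay on either side of the DMSO library. The log2 change was 0.43 at 6 h, -0.36 at 72 h and 0.72 at 120 h (95% interval -0.206 to 1.64, adjusted p = 0.28). CHAC1 (chr15:40952962-40956519, plus strand), a glutathione-degrading enzyme and an ATF4 and CHOP target, was listed between 0 and 4.09 over the 11 libraries. That amounts to a few estimated counts, and it was not tested.

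PPP1R15A (chr19:48872392-48876057, plus strand), the stress-induced subunit that directs phosphatase 1 to eIF2, carried the clearest change. It had 312.2 and 288.6 in DMSO and 325.6 and 356.4 in decitabine at 6 h. At 72 h it had 336.6 in DMSO and 616.7 and 863.9 in decitabine, and at 120 h 312.5 and 329.4 in DMSO and 880.4 and 878 in decitabine. The DMSO libraries kept within 288.6 to 336.6 over the whole course, and the lowest of the 4 late decitabine libraries was at 616.7. The log2 change was 0.18 at 6 h (SE 0.191), 1.11 at 72 h (95% interval 0.579 to 1.65, adjusted p = 0.0529) and 1.45 at 120 h (95% interval 1.01 to 1.89, adjusted p = 0.00197), which is a ratio of means of 2.74. The 120 h call was made in 22 of 22 alternatives, with adjusted p from 5.46e-05 to 0.0264. In order of log2 change at 120 h it stood at place 1581 of 16152 from the top. Its constitutive relative PPP1R15B, which serves the same phosphatase, had 1416 ± 109 in DMSO and 1396 ± 5.75 in decitabine at 120 h (SD, n = 2), a log2 change of -0.02 (adjusted p = 0.956).

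Of the 5 genes of the ER branch taken up here, ERN1, XBP1, HSPA5, DNAJB9 and HERPUD1, 0 were called at 6, 72 or 120 h in the fit over all libraries, where 0%, 2.19% and 15.9% of all genes were called. ERN1 (chr17:64039142-64130819, minus strand), the ER kinase and nuclease IRE1, had 316.3 and 295.3 in DMSO and 249.9 and 270.6 in decitabine at 6 h, where both decitabine libraries were below all 5 DMSO libraries. At 72 h it had 372.8 in DMSO and 351.3 and 370.5 in decitabine, and at 120 h 387.3 and 369.8 in DMSO and 428.7 and 346.6 in decitabine, with overlap. Its log2 change was -0.23 at 6 h (95% interval -0.625 to 0.161), -0.05 at 72 h and 0.03 at 120 h (95% interval -0.367 to 0.42). The sign at 120 h turned under both other scalings, to -0.001083 and -0.04374.

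XBP1 (chr22:28794555-28800597, minus strand), whose mRNA is the substrate of ERN1, had 2087 and 2147 in DMSO and 1977 and 2365 in decitabine at 6 h. At 72 h it had 2118 in DMSO and 1793 and 3248 in decitabine, and at 120 h 1959 and 2051 in DMSO and 1560 and 1572 in decitabine. The 120 h decitabine pair lay below all DMSO libraries, whereas the 72 h pair lay on both sides. The log2 change at 120 h was -0.36 (95% interval -0.938 to 0.225, adjusted p = 0.399); over the alternatives the adjusted p ran from 0.0355, without the 72 h libraries, to 0.653.

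HSPA5 (chr9:125234853-125241330, minus strand), the main ER chaperone and the usual marker of ER stress, had 3817 and 3617 in DMSO and 4066 and 4637 in decitabine at 6 h. At 72 h it had 2808 in DMSO and 2935 and 3958 in decitabine, and at 120 h 4548 and 2988 in DMSO and 4576 and 4016 in decitabine. The DMSO duplicates at 120 h differed from each other by more than the treated ones did. Its log2 change was 0.22, 0.28 and 0.22 at 6, 72 and 120 h, and the 95% interval at 120 h was -0.315 to 0.75 (adjusted p = 0.586). That interval includes both a rise of more than the point estimate and no change. The promoter element printed above for HSPA5 is the same kind as that of XBP1, and at 120 h the log2 changes of the pair had opposite signs, neither called.

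DNAJB9 (chr7:108569568-108574850, plus strand), an HSPA5 co-chaperone that keeps ERN1 inactive, had 351.2 and 325.4 in DMSO and 289.7 and 433.2 in decitabine at 6 h. At 72 h it had 407.2 in DMSO and 288.4 and 816 in decitabine, the widest split of the 9 tested genes on the log2 scale, and at 120 h 234.8 and 365.2 against 340.4 and 381.8. The groups overlapped at each time, and the log2 change at 120 h was 0.30 (95% interval -0.726 to 1.32, adjusted p = 0.707). Its first exon overlaps THAP5 and PNPLA8 on the other strand. THAP5 had 1225 in decitabine 72 h replicate 2, where DNAJB9 had 816, and 538 to 817 in the other libraries. PNPLA8 had 921 in replicate 1 and 669.8 in replicate 2 of the same group, the opposite order.

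HERPUD1 (chr16:56932048-56944863, plus strand), an ER membrane protein that helps remove misfolded proteins, had 193.7 and 182.8 in DMSO and 205.2 and 258.4 in decitabine at 6 h. At 72 h it had 173.4 in DMSO and 251.9 and 159.9 in decitabine, and at 120 h 173.5 and 163.5 in DMSO and 266.6 and 244.1 in decitabine. At 6 and 120 h both decitabine libraries were above all 5 DMSO libraries, and at 72 h the pair was split. The log2 change was 0.29 at 6 h (SE 0.244), 0.21 at 72 h (SE 0.299) and 0.60 at 120 h (95% interval 0.0373 to 1.16, adjusted p = 0.143). Without the 72 h libraries its adjusted p was 0.0244, in a range of 0.0235 to 0.422 over the alternatives.

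At 6 h, after a single addition, 0 of the 9 tested genes were called, where 0% of all genes were called by limma and 541 of 16152 had an unadjusted p under 0.05. The log2 changes ran from -0.23 for ERN1 to 0.43 for TRIB3 and were positive in 8 of 9, with a median of 0.156 against -0.00856 for all genes. Decitabine was above both same-time DMSO libraries for ATF4, TRIB3, HSPA5, HERPUD1 and PPP1R15A and below them for ERN1, where 18.2% and 20.8% of all tested genes were so placed. Of these, HERPUD1 was above and ERN1 below all 5 DMSO libraries, as were 5.66% and 5.55% of all tested genes. No alternative called any of the genes at this time.

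At 72 h the fit over all libraries called 0 of the 9, against 2.19% of all genes (1.88% higher and 0.310% lower); of the 9, DDIT3 (unadjusted p = 0.0426) and PPP1R15A (unadjusted p = 0.00124) were under 0.05 before adjustment. Set against all 5 DMSO libraries instead of the single DMSO 72 h library, DDIT3 and PPP1R15A were called higher, where 18.1% of all genes were called (10.7% higher and 7.35% lower). These genes were above, and ATF4 below, all 5 DMSO libraries, as were 18.2% and 12.6% of all tested genes; against the DMSO 72 h library alone, HSPA5 was also above and ERN1 and CHAC1 also below, with 37.5% and 27.6% of all tested genes. The decitabine duplicates differed, replicate 2 minus replicate 1, by log2 1.5 for DNAJB9, 0.88 for DDIT3, 0.86 for XBP1, 0.49 for PPP1R15A, 0.43 for HSPA5, 0.08 for ERN1, -0.26 for ATF4, -0.65 for HERPUD1 and -1.41 for TRIB3. Of all tested genes, 88.7% differed less between the duplicates than DNAJB9 and 86.8% less than TRIB3. Leaving out replicate 1 gave 5 calls (DDIT3, XBP1 and PPP1R15A higher, ATF4 and TRIB3 lower), where 29.7% of all genes were called (16.8% higher and 13% lower). Leaving out replicate 2 gave 1, PPP1R15A, higher, where 4.55% were called (2.87% higher and 1.68% lower), so calls at 72 h depend on which well is used, for these genes and for all genes. Replicate 1 is the 72 h library with the high shares of FP671120.7 and mitochondrial mRNA, whose part in this was not tested.

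In DMSO cells the 9 genes gave 0 calls between 6 and 72 h and 0 between 6 and 120 h, as did all genes tested (0%), with 456 and 865 genes at an unadjusted p under 0.05. The log2 differences ran from -0.40 to 0.50 at 72 h and from -0.37 to 0.31 at 120 h. The effect of decitabine was larger at 120 h than at 6 h for PPP1R15A, by 1.27 on the log2 scale (SE 0.271, adjusted p = 0.0338), where 5.90% of all genes differed so (4.27% upwards and 1.63% downwards); the call held in 11 of 21 alternatives, with adjusted p from 0.00191 to 0.133. It was lost on leaving out any one of the 120 h or 6 h libraries. For ATF4 the difference of effects was -0.63 (SE 0.216, adjusted p = 0.136) and for DDIT3 0.94 (SE 0.48, adjusted p = 0.307). Between 120 h and 72 h 0 of the 9 effects and 0% of all genes differed by limma, with 1022 genes at an unadjusted p under 0.05; PPP1R15A differed by 0.34 (95% interval -0.354 to 1.03).

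The wider pathways were read from lists of genes, again at 120 h, where 9.91% of all genes were called higher and 6.00% lower and the median log2 change of all genes was 0.07. Of 22 tested sensors and switches (23 listed), 0 were higher and 4 lower, with 18 negative log2 changes and a median of -0.326. They were EIF2B3, with 454.8 ± 46.9 in DMSO and 200.4 ± 45.3 in decitabine (SD, n = 2; log2 -1.19, adjusted p = 0.0104), EIF2S1 (-0.98, adjusted p = 0.0437), GCN1 (-0.65, adjusted p = 0.0468) and EIF2B1 (-0.54, adjusted p = 0.049). EIF2S1 is the subunit of eIF2 that the stress kinases phosphorylate, EIF2B1 and EIF2B3 belong to its exchange factor, and GCN1 activates the kinase GCN2. At 72 h their log2 changes were -1.08, -0.07, -1.01 and -0.60, none called. The calls of EIF2B1 and GCN1 were lost in 12 of 22 alternatives each, that of EIF2S1 in 10 and that of EIF2B3 in 2.

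The 4 eIF2 kinases, singled out after their values were seen, were not called at 120 h. EIF2AK3 (PERK), the ER sensor, had 412 ± 103 in DMSO and 763.1 ± 95.6 in decitabine (SD, n = 2), a log2 change of 0.90 (SE 0.315, adjusted p = 0.0913), and 1.34 at 72 h (adjusted p = 0.125). EIF2AK4 (GCN2) was at -0.51 (adjusted p = 0.253), EIF2AK1 (HRI) at -0.31 and EIF2AK2 (PKR) at -0.20. ATF6, the third ER sensor, was at 0.14 (adjusted p = 0.711).

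Of 41 tested ATF4 and CHOP targets (45 listed), 6 were higher and 10 lower at 120 h, beside 9.91% and 6.00% of all genes, and the median log2 change was -0.243 against 0.07. Named by size, the higher ones were CCPG1, a receptor for autophagy of the ER, with 942.1 ± 31.1 in DMSO and 3507 ± 153 in decitabine (SD, n = 2; log2 1.90, adjusted p = 0.00824), the autophagy receptor SQSTM1 (1.73, adjusted p = 0.0211), the cystine transporter SLC7A11 (1.46, adjusted p = 0.0261) and the lipoprotein receptor VLDLR (1.38, adjusted p = 0.0048). The lower ones included PSAT1, a serine synthesis enzyme, with 801.2 ± 167 in DMSO and 310.1 ± 6.91 in decitabine (log2 -1.35, adjusted p = 0.00204). ALDH1L2 (-1.67, adjusted p = 0.0425) and GPT2 (-1.16, adjusted p = 0.0086) are mitochondrial enzymes of folate and alanine metabolism, and SLC7A1 (-1.14, adjusted p = 0.0147) carries cationic amino acids. The 6 other lower genes were the tRNA synthetases AARS1, EPRS1 and GARS1, the tRNA exporter XPOT, the folate enzyme SHMT2 and the translation repressor EIF4EBP1, and the other higher ones were the death receptor TNFRSF10B and KLHL24. At 72 h the log2 changes were 1.72 for CCPG1, 0.99 for SQSTM1, 1.35 for SLC7A11, 0.70 for VLDLR, -0.62 for PSAT1, 0.77 for ALDH1L2, -0.72 for GPT2 and -0.89 for SLC7A1, with 0 of 41 called. Within the one list, members thus differed in both directions, and the call of ALDH1L2 was lost in 11 of 22 alternatives.

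**Figure D3:**
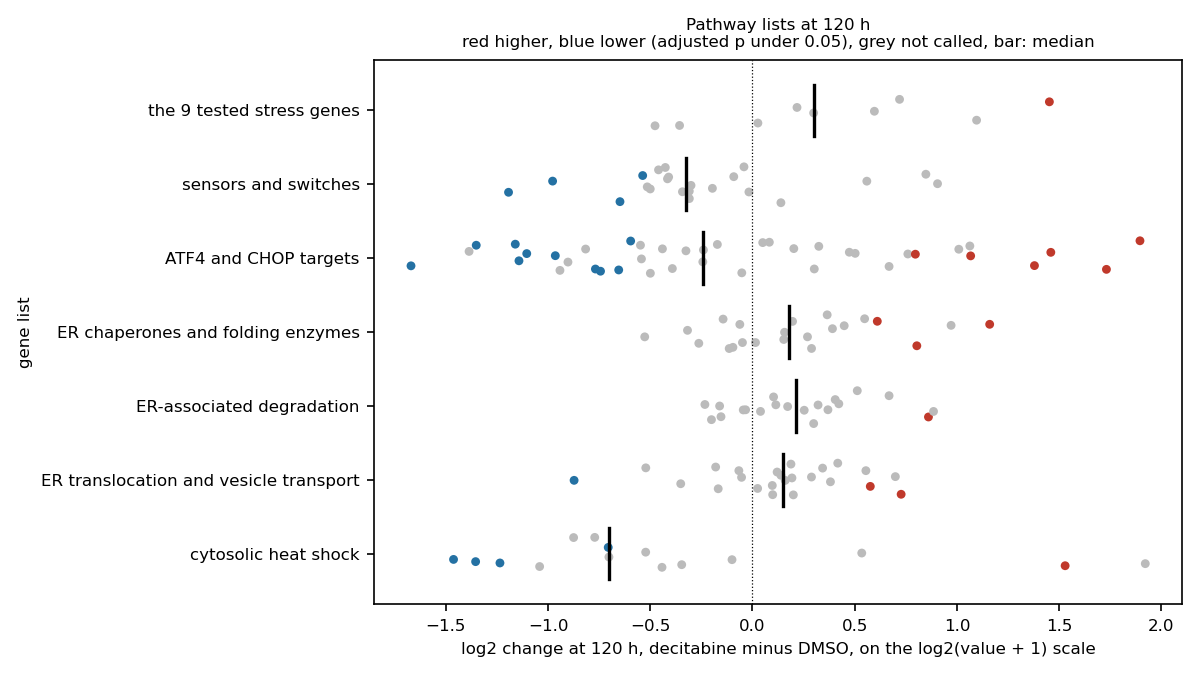
Log2 change at 120 h, decitabine minus DMSO (x axis, log2(value + 1) scale), of the 9 tested stress genes and of the tested genes of 6 pathway lists (y axis; vertical scatter within a row has no meaning). Red and blue points have an adjusted p under 0.05, grey points do not, and black bars are medians, from -0.702 for cytosolic heat shock to 0.299 for the stress genes.

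ER chaperones and folding enzymes had 3 of 22 genes higher and 0 lower at 120 h, with a median of 0.176 against 0.07; with 9.91% of all genes called higher, neither this count nor those of the next 2 lists stands far from the background. CRELD2, a secreted ER stress factor, had 163.6 ± 11.1 in DMSO and 366.6 ± 19.3 in decitabine (SD, n = 2; log2 1.16, adjusted p = 0.00672), the co-chaperone and PERK inhibitor DNAJC3 1969 ± 23.6 and 3438 ± 33.6 (0.80, adjusted p = 0.0238), and the disulphide isomerase PDIA3 3009 ± 9.46 and 4594 ± 73.3 (0.61, adjusted p = 0.017). At 72 h these were at 0.49, 0.80 and 0.41, and 17 of the 22 were positive with a median of 0.434 against 0.0913 for all genes, 0 called. Of 20 genes of ER-associated degradation 1 was higher, the mannosidase-like EDEM2 with 250.9 ± 14.1 and 456.1 ± 9.44 (log2 0.86, adjusted p = 0.00992; 0.22 at 72 h), and 0 were lower, with a median of 0.212. Of 24 tested genes of ER translocation and vesicle transport (25 listed), the coat protein SEC24D (0.73, adjusted p = 0.0309) and the signal peptidase SEC11A (0.58, adjusted p = 0.0477) were higher and the receptor subunit SRPRB (-0.87, adjusted p = 0.0196) lower, with a median of 0.15. At 72 h they were at 0.48, 0.47 and -0.86. The calls of SEC11A, SEC24D and DNAJC3 were lost in 12, 10 and 8 of 22 alternatives.

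The list of heat shock genes, named for the cytosol but holding the mitochondrial chaperonins HSPD1 and HSPE1, had 1 of 15 genes higher and 4 lower at 120 h, beside 9.91% and 6.00% of all genes. Of the 15, 12 had a negative log2 change, and the median was -0.702 against 0.07; at 72 h it was -0.0248 against 0.0913. HSPE1 had 4094 ± 223 in DMSO and 1484 ± 5.95 in decitabine (SD, n = 2; log2 -1.46, adjusted p = 0.000546) and its partner HSPD1 17520 ± 283 and 6850 ± 121 (-1.35, adjusted p = 0.000822). HSP90AB1 was at -1.23 (adjusted p = 0.00969) and HSPH1 at -0.71 (adjusted p = 0.0348). HSPA1A was higher, at 137.9 ± 16.4 and 400.2 ± 52.2 (1.53, adjusted p = 0.00412), a value that is uncertain since its near-identical copy HSPA1B shares reads with it. HSPA1B itself was at 0.53 (adjusted p = 0.339). At 72 h the log2 changes were -0.53 for HSPE1, -0.87 for HSPD1, -0.36 for HSP90AB1, -0.07 for HSPH1 and 0.22 for HSPA1A, none called. The 120 h calls of HSPE1, HSPD1 and HSPA1A were made in all 22 alternatives, while that of HSP90AB1 was lost in 3 and that of HSPH1 in 10.

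With the 72 h libraries left out, the 120 h calls grew to 3 higher and 8 lower among the sensors and switches, 10 and 17 among the ATF4 and CHOP targets, 7 and 1 among the ER chaperones, 8 and 0 in ER-associated degradation, 5 and 1 in translocation and 1 and 11 in cytosolic heat shock. Calls over all genes grew likewise, from 9.91% to 16.2% higher and from 6.00% to 15.3% lower. At 6 h and between the DMSO times 0 genes of these lists were called. The list medians at 120 h kept their sign under both other scalings. Quantile normalisation moved the median of all genes from 0.07 to -0.0973 at 120 h and from 0.0913 to -0.0435 at 72 h, and against this shift the 72 h median of the translocation list turned from 0.111 to -0.0297.

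**Figure D4:**
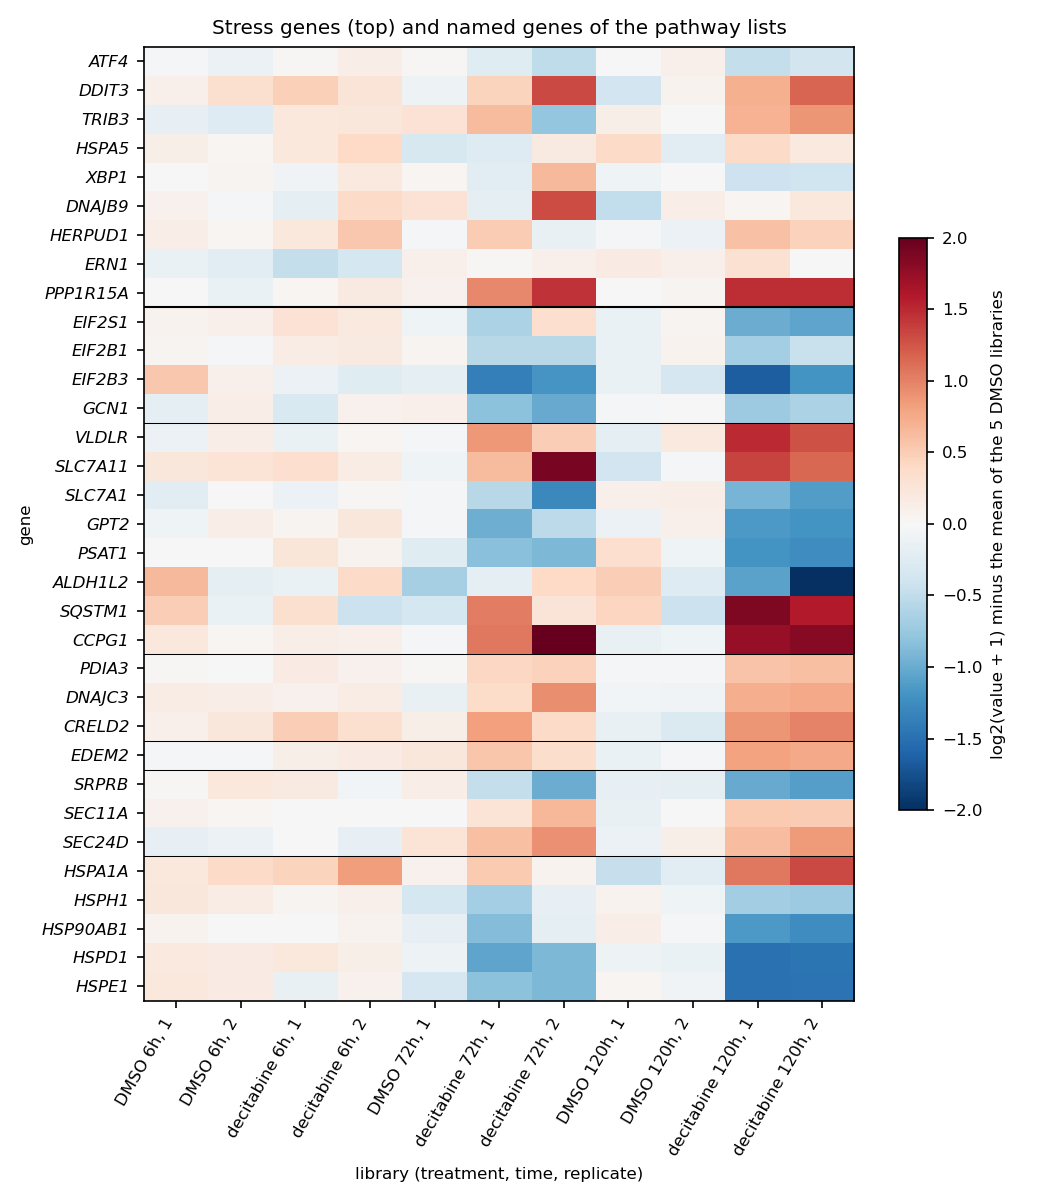
Log2(value + 1) of the 9 tested stress genes (top block) and of the named genes of the pathway lists (blocks below), each relative to its mean over the 5 DMSO libraries, in 11 libraries ordered by time (x axis). The colour scale ends at -2 and 2, and values beyond it have the end colours. PPP1R15A, CCPG1 and SLC7A11 are red and HSPD1, HSPE1 and PSAT1 blue in the decitabine libraries of 72 and 120 h, and the 6 h libraries are mostly pale.

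The genes most alike to a few of the 10 over the 11 libraries were found from the root mean square difference of log2 values, each taken relative to its own mean; the libraries share groups, so this is a description. For ATF4 they were NUP205, a nuclear pore protein (0.0641), and RACK1, a ribosome-bound scaffold (0.0702), against a spread of ATF4 itself of 0.22. For DDIT3 they were OMA1 (0.156) and AMACR (0.172), against 0.491. OMA1 is a mitochondrial protease that starts the integrated stress response through DELE1; its means were 878.8 in DMSO and 1573 in decitabine at 120 h (log2 0.85, adjusted p = 0.088). For XBP1 they were DIS3 (0.0397) and HAUS3 (0.0507), against 0.276, and for HSPA5, ZNF10 (0.145) and IFNAR1 (0.153), against 0.251. Annotated pseudogene copies of ATF4, HSPA5 and XBP1 reached at most 5.17 normalised counts in any library.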

How the data were processed

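RNA-seq values of 11 HL-60 libraries were analysed. Per the labels' protocols, total RNA was depleted of ribosomal RNA with RiboZero Gold, made into stranded libraries with ScriptSeq v2 and read as single-end 50 bp reads. Per the submitters' processing notes, hg38, Salmon 1.2.1, STAR, featureCounts, DESeq2 and limma were used, with no role or order, and no annotation release is named. As deposited, the table holds a normalised signal, never below 0, in which many low values are multiples of a step of each library, the form that estimated counts take after division by a size factor. Since too few values came out as whole reads, count models were not applied. The heading holds 12 names over 11 value columns; read as starting at the symbol, libraries of 1 group differed by a mean of 0.299 (log2) and those of different groups by 0.439, and read from the identifier by 0.429 and 0.426.

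The filter kept genes that reached 10 in 2 or more libraries (16152 of 60240; 9 of the 10 stress genes). Group means were fitted to log2(value + 1) with limma 3.58.1 (lmFit, eBayes with trend) in R 4.3.3, with 5 residual degrees of freedom before moderation. Fold changes are on that scale, which shrinks those of low genes. DMSO at 72 h has 1 library, assumed to vary like the other groups. P-values are two-sided with Benjamini-Hochberg adjustment. Gene positions are from GENCODE 29 on GRCh38, which may not be the release used for the deposited values, and per-kilobase levels divide by the summed exon length of all transcripts there. The stress genes, lists and motifs were chosen with earlier results of these data known. Named list genes are those called at 120 h, at most the 4 with the largest log2 change in each direction. For likeness, the 2 nearest genes of ATF4, DDIT3, XBP1 and HSPA5 were named. Alternatives varied the pseudocount, filter, scaling, spread, replicate block, libraries and controls. Plots were drawn with matplotlib 3.10.9.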

Additional observations from a re-analysis of the deposited data

Results flagged for a closer look

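The effect of decitabine differed between 120 h and 6 h, by limma's test of the difference itself with adjusted p under 0.05, for PPP1R15A and for 8 of the list genes called at 120 h. PPP1R15A differed by 1.27 (log2, effect at 120 h minus that at 6 h, adjusted p = 0.0338) and VLDLR by 1.43 (adjusted p = 0.0355). PSAT1 differed by -1.51 (adjusted p = 0.014), HSPD1 by -1.34 (adjusted p = 0.0103), GPT2 by -1.28 (adjusted p = 0.0448) and HSPE1 by -1.24 (adjusted p = 0.0132). Nearest to the threshold were SHMT2 at -1.06 (adjusted p = 0.0451), EIF4EBP1 at -1.13 (adjusted p = 0.0484) and KLHL24 at 0.945 (adjusted p = 0.0492). At 6 h the effects on these 9 genes ran from -0.22 for HSPE1 to 0.32 for SHMT2, none called. Of all tested genes, 5.90% differed in this way. The signed log2 effect was higher at 120 h than at 6 h for 4.27% and lower for 1.63%. By list, 6 of 41 ATF4 and CHOP targets differed, 2 upwards and 4 downwards. Of 15 heat shock genes, 2 differed, downwards. Of 22 sensors and switches, 22 ER chaperones, 20 genes of ER-associated degradation and 24 of translocation, 0 differed. Counted in either direction over these lists pooled, the 8 genes are no more than the background. They all belong to the ATF4 and CHOP targets and the heat shock genes, however. The downward counts there, 4 of 41 and 2 of 15, stand beside 1.63% of all genes. The 120 h effect is part of the difference tested, so genes called at 120 h were not an independent choice.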

How the results depend on the processing

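Of 588 values computed under an alternative, over 28 results, 525 kept their direction and side of the threshold, 37 passed it only under the alternative, 10 no longer passed it and 16 turned sign. At 120 h the 1 gene called became 2 with median-ratio scaling, 5 with sample weights, 5 with only the libraries of that time, 3 against all DMSO libraries and 6 without the 72 h libraries, the last 2 settings chosen after seeing the data; leaving out single libraries gave 1 to 6, with 6 on leaving out either decitabine 72 h library. At 72 h the 0 calls became 1 with a pseudocount of 5, 1 with quantile normalisation, 2 against all DMSO libraries, and 0 to 5 on leaving out single libraries. For the difference of effects between 120 and 6 h the 1 call became 0 without a filter, 0 without a trend, 2 with sample weights, 2 with only the times compared and 2 without the 72 h libraries, and 0 to 2 on leaving out single libraries; between 120 and 72 h, leaving out single libraries gave 0 to 2, the 2 being TRIB3 and XBP1 without decitabine 72 h replicate 1. At 6 h and between DMSO times every alternative gave 0. For all genes, the 120 h count of 2570 ran from 789 to 4940 on leaving out single libraries and from 2271 to 5031 otherwise, the 72 h count of 353 from 137 to 4756 and from 0 to 2917.

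The signs that turned belong to changes not called with all libraries. TRIB3 and XBP1 at 72 h did pass the threshold without decitabine 72 h replicate 1, a fit that leaves 1 library against 1 at that time. Quantile normalisation gave -0.01336 for XBP1 at 72 h and -0.001083 for ERN1 at 120 h, and median-ratio scaling -0.04374 for ERN1 at 120 h. Against all DMSO libraries, HSPA5 was at -0.03917 and ERN1 at 0.05851 at 72 h. On leaving out single libraries, the log2 changes at 120 h ran from -0.1264 to 0.1794 for ERN1, from -0.01854 to 0.6168 for DNAJB9 and from -0.08521 to 0.5206 for HSPA5, those at 72 h from -0.4966 to 1.001 for DNAJB9, from -0.1171 to 0.5359 for HERPUD1, from -1.061 to 0.35 for TRIB3 and from -0.2403 to 0.6171 for XBP1, and those at 6 h from -0.09836 to 0.1596 for XBP1 and from -0.222 to 0.357 for DNAJB9. The cause was not tested. 

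Replicate numbers were not taken to pair the samples. The differences between duplicates correlated between groups by -0.0777 to 0.124, which gives little sign of pairing but cannot exclude a shared plate, day or culture. With the replicate number as a block, 2 stress genes were called at 120 h (DDIT3 and PPP1R15A), and DNAJB9 at 72 h was at -0.02448. Depth limits CHAC1, at a few estimated counts, and duplicates limit the rest.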
